A study of Mus musculus with 16 samples.

Results

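The comparison of octanol with vehicle, averaged over both sorted cell fractions, was described for 19505 genes. All 16 arrays of the series entered it. For each of 8 pools of mice the log2 signals of the GFP+ and the GFP- array were averaged, and the 4 octanol pools were set against the 4 vehicle pools. Such a mean also moves when a gene differs in 1 fraction alone, so the values of each fraction are given for the main gene groups and for part of the genes in which they differ. The mice carried the S100a5-tauGFP reporter, in which the S100a5 locus drives a green fluorescent protein, and no source used here names their strain. They were 24 males and females of 7 to 12 weeks, each kept alone in a chamber of flowing clean air (3.1 L/min) for 40 h. From 26 h onward they received 10 s pulses at intervals of 20 min, of octanol in one group and of filtered air in the vehicle group. Cells dissociated from the olfactory mucosa were sorted by fluorescence, and RNA of 3 mice was pooled for each array. Each exposure had 4 arrays of GFP+ and 4 of GFP- cells. The arrays were Clariom S, which report 1 log2 signal for most genes.

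Olfactory sensory neurons each express 1 odorant receptor gene and signal through a G protein, adenylyl cyclase and a cyclic nucleotide gated channel. Odorants that activate a neuron raise the level of S100a5, a calcium-binding protein gene, and of a few other activity-dependent genes, so the reporter marks neurons that have been active. Beneath and around the neurons, sustentacular cells hold enzymes that metabolise inhaled chemicals, and Bowman's glands secrete the mucus in which odorants dissolve. The dissociated tissue also holds basal cells, immature neurons and leukocytes, which the GFP- gate collects with the unlabelled neurons.

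The marker genes of mature neurons were all above background (15 of 15). Background was set at 6.32 log2, the 95th percentile of the mean signals of 321 vomeronasal receptor genes, most of which are used in another organ. S100a5 lay between 16.75 and 17.02 log2 in the 8 GFP+ arrays and between 15.78 and 16.31 in the 8 GFP- arrays, so the fractions did not overlap in the gene that drives the reporter. Array medians ran from 7.42 to 7.70 log2. The share of genes above background, as the mean of both fractions, was 66.1% ± 0.746 in octanol pools and 65.5% ± 0.415 in vehicle pools (SD, n = 4), a difference within the spread between pools (exact permutation test, 2-sided, p = 0.286, where 0.0286 is the smallest p that 4 against 4 pools can give). The mean of 3 Y-linked genes ranged from 9.12 to 10.90 log2 over octanol pools and from 9.15 to 10.90 over vehicle pools (exact permutation p = 0.743), so pools differed in it within each exposure. Nothing in the labels says more about how pools of 1 group came about than that each held 3 mice, and the spread between pools is the only error measured.

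No gene passed the test for a difference in the mean of both fractions. In limma, with Benjamini-Hochberg adjustment over 19505 genes and a threshold of 0.05, 0 genes (0%) were called, and the smallest adjusted p was 0.999. At an unadjusted p under 0.05, 403 genes (2.07%) were higher after octanol and 343 (1.76%) were lower. The 4 octanol pool means lay wholly above the 4 vehicle means for 227 genes (1.16%) and wholly below them for 229 (1.17%). These shares are the background against which each gene group below is read, and all single genes below are described without a call.

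The median standard error of a difference was 0.12 log2, and the 95% confidence interval reached a median of 0.27 to either side. For 99.1% of genes (19338) that interval lay within a 2-fold change in either direction, and for 90.1% (17574) within 1.5-fold. Odorant receptors were measured less tightly, with a median standard error of 0.18 and 56.8% of 1091 within 1.5-fold. A difference above 1 log2 in size was estimated for 6 genes, all higher after octanol: Bpifb9a, Bpifb9b, Retnlg, S100a9, Mmp8 and Ngp. The first 2 are secreted proteins of the mucosal glands and the other 4 are neutrophil genes.

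**Figure D1:**
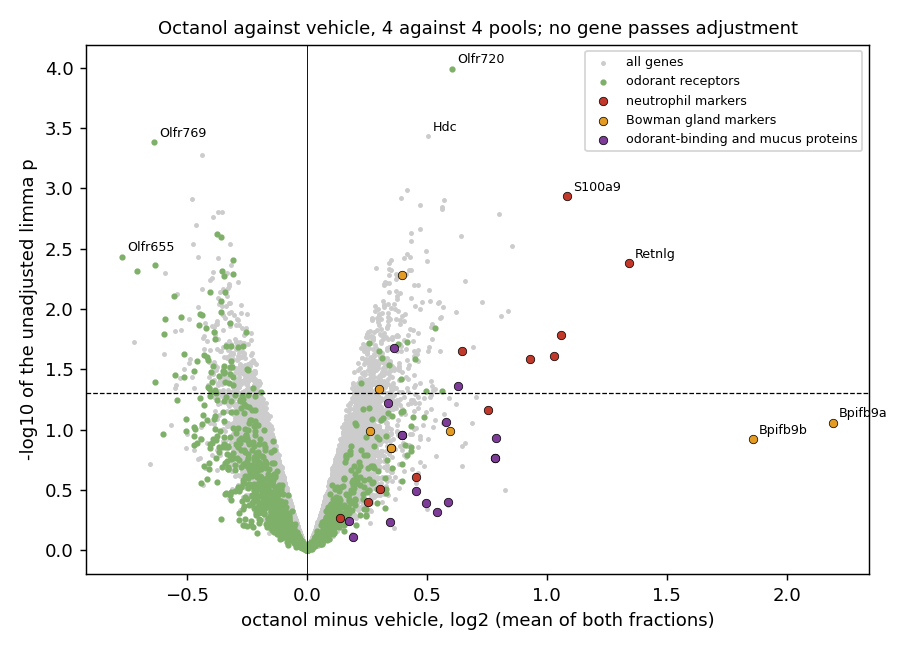
Difference between octanol and vehicle (x axis, log2, mean of both fractions) against the -log10 of the unadjusted limma p (y axis) for 19505 genes; the dashed line marks the unadjusted threshold of 0.05. Neutrophil, Bowman gland and mucus genes lie to the right of 0 and odorant receptors lie more often to its left, while the smallest adjusted p is 0.999.

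Neutrophil genes were the group with the largest median difference among the lists described here. Lists and members were chosen with earlier results of these data known, so the ranking is descriptive only. All 12 measured neutrophil markers had a positive difference, with a median of 0.70 log2 against -0.01 over all genes, 6 of them at an unadjusted p under 0.05 and 0 called. Their mean signal per pool was 11.49, 11.02, 11.74 and 12.38 log2 in octanol pools 1 to 4 and 10.95, 10.59, 10.84 and 11.46 in vehicle pools 1 to 4. Octanol pool 4 was the highest, octanol pool 2 lay below vehicle pool 4, and without octanol pool 4 the median of the list was 0.38. In such bulk samples more cells of a type and more RNA per cell cannot be told apart.

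S100a9, a subunit of calprotectin that neutrophils store in quantity, had signals of 13.12, 12.76, 13.47 and 13.78 log2 in the octanol pools and 12.52, 11.72, 11.93 and 12.61 in the vehicle pools. Every octanol pool lay above every vehicle pool. The difference was 1.09 ± 0.25 (SE), a fold of 2.12, with a 95% confidence interval of 0.54 to 1.63 (limma, adjusted p = 0.999). Retnlg, a resistin-like protein of granulocytes, stood at 13.03, 12.97, 13.94 and 14.75 in octanol pools and at 12.28, 12.10, 11.96 and 12.97 in vehicle pools, a difference of 1.34 ± 0.37 or 2.54-fold. Octanol pool 2 and vehicle pool 4 met at 12.97. Mmp8, the neutrophil collagenase, was higher by 1.06 ± 0.37 log2, although its GFP+ signal was below background in octanol pool 1 (6.31) and in vehicle pools 2 and 3 (5.99 and 5.14). Ngp, which encodes a granule protein, was higher by 1.03 ± 0.39, and vehicle pool 1 (13.90) and octanol pool 1 (13.91) were nearly equal.

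The difference in neutrophil markers was larger in GFP+ cells, where the list had a median of 1.00 log2, than in GFP- cells, where it was 0.44. The list's mean in GFP+ cells was 7.50, 7.57, 8.75 and 9.42 in octanol pools and 7.68, 6.94, 7.05 and 7.67 in vehicle pools, so octanol pools 3 and 4 stood apart and pools 1 and 2 lay among the vehicle pools. In GFP- cells, which hold most of this signal, the list's mean was 15.47, 14.47, 14.73 and 15.35 after octanol and 14.23, 14.23, 14.64 and 15.25 after vehicle. S100a9 was higher by 1.69 log2 in GFP+ cells and by 0.48 in GFP- cells, a gap of 1.21 between fractions that was not called (limma, adjusted p = 0.998). Of the neutrophil markers, 2 had an unadjusted p under 0.05 for a larger difference in GFP+ cells, where 2.59% of all genes did. Without octanol pool 4 the GFP+ median of the list was 0.53, and without octanol pool 1 the GFP- median was 0.23.

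The promoters of S100a9 and Retnlg are shown because these neutrophil genes had the lowest unadjusted p of the list. They are the 250 bases before the RefSeq start in mouse build GRCm38.p6, chr3:90695722-90695971 on the minus strand and chr16:48872358-48872607 on the plus strand, written 5′ to 3′ with the motif in capitals.
S100a9 promoter: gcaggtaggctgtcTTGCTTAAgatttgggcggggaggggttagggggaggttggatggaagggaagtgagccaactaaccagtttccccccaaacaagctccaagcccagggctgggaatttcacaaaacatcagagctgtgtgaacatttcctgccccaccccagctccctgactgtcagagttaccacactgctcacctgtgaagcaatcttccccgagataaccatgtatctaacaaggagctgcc
Retnlg promoter: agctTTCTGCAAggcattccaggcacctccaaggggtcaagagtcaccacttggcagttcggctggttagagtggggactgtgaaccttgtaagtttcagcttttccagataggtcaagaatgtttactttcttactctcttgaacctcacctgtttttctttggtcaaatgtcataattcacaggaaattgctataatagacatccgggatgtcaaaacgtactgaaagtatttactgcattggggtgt
The capitals mark TTGCNNAA, searched on both strands, letters that cover the palindrome bound by CCAAT/enhancer-binding proteins, a family known for its part in granulocyte development. It occurs 236 bases before the start of S100a9 and 246 before that of Retnlg, 19 bases before that of Mmp8, and at 138 and 11 bases in Ngp. Of all 32851 promoter windows of this length 9.56% hold it. Of the 11 neutrophil markers for which a promoter was given, 6 hold it in any of their windows, a share per gene and not per window. A match describes the letters only.

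Of 13 monocyte and macrophage markers 11 had a positive difference, with a median of 0.23 log2 and 2 at an unadjusted p under 0.05. Ccr2, the chemokine receptor of inflammatory monocytes, measured 8.52, 8.14, 8.56 and 8.67 log2 after octanol and 8.08, 7.78, 8.02 and 7.76 after vehicle, a difference of 0.56 ± 0.13 without overlap. That difference lay in GFP+ arrays (1.04), where its signal was below background in all 8 pools, and in GFP- arrays, where the gene was well above background, it was 0.08. Lyz2, the lysozyme of myeloid cells, was higher by 0.54 ± 0.24, and Ly6c2, a surface protein of classical monocytes, by 0.70 ± 0.32 with octanol pool 4 highest at 12.50. In GFP- cells these 2 genes differed by 0.29 and 0.11. Tyrobp, a signalling adaptor of myeloid cells, was higher by 0.45 ± 0.21, with vehicle pool 4 at 9.33 beside 8.34 to 8.43 in the other vehicle pools.

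Hdc, histidine decarboxylase, which makes histamine, had the second lowest unadjusted p of all genes with a positive difference. Its octanol pools measured 10.12, 9.95, 10.08 and 10.27 log2 and its vehicle pools 9.50, 9.58, 9.60 and 9.73. The groups did not overlap, also not within GFP+ cells nor within GFP- cells, and the difference was 0.50 ± 0.10 (limma, adjusted p = 0.999). Jaml, an adhesion molecule of leukocytes, was higher by 0.64 ± 0.16, Ccl6, a chemokine of myeloid cells, by 0.50 ± 0.13, and Cxcl2, a neutrophil attractant, by 0.56 ± 0.13. All 3 had pools without overlap, but Cxcl2 lay below background in every vehicle pool (5.52 to 6.15).

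**Figure D2:**
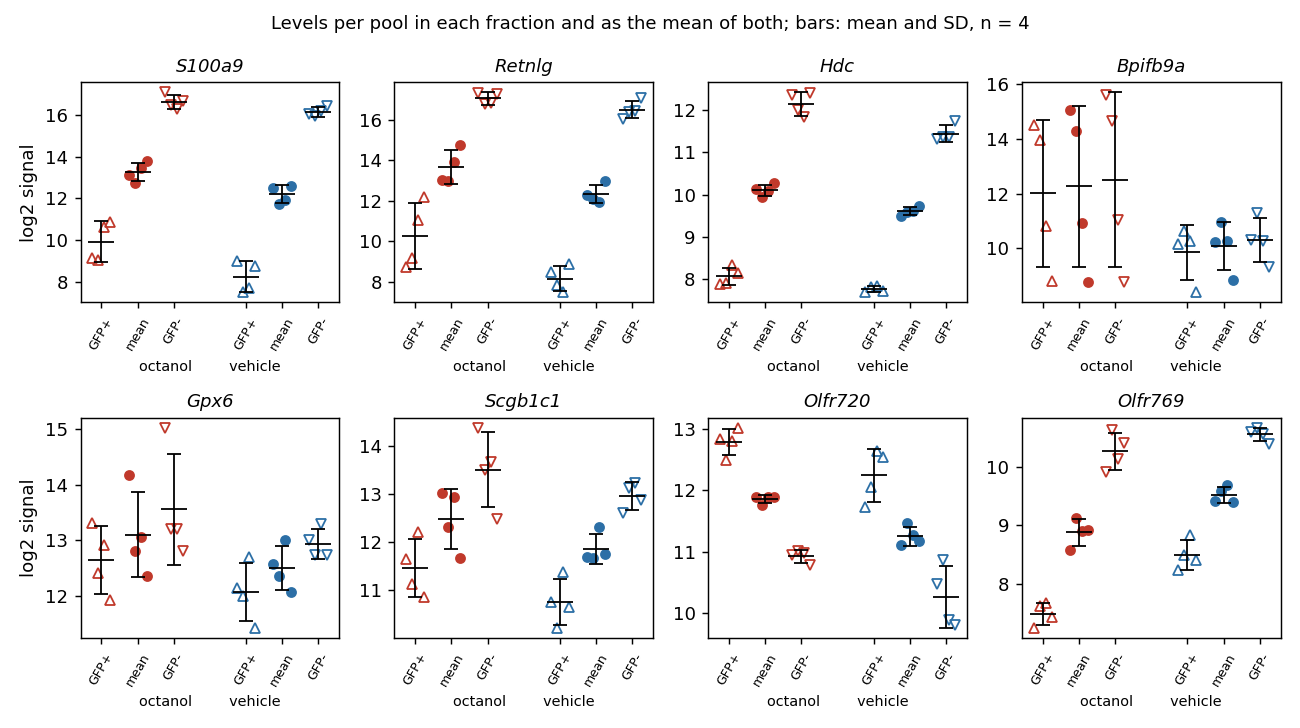
Log2 signal (y axis) of 8 genes in each pool, for GFP+ arrays (triangles up), the mean of both fractions (filled circles) and GFP- arrays (triangles down), octanol in red and vehicle in blue; bars give the mean and SD of 4 pools. S100a9, Hdc and Olfr720 have octanol pool means above all vehicle pool means, Olfr769 has them below, and Bpifb9a is high in octanol pools 1 and 2 (15.06 and 14.31).

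Genes of Bowman's glands and of the secreted mucus were the next groups. All 9 measured gland markers had a positive difference (median 0.40 log2, 2 at an unadjusted p under 0.05), as did all 14 measured odorant-binding and mucus proteins (median 0.48, 2 at an unadjusted p under 0.05). The lists share Bpifb4 and Muc5b, and the gland list shares Ltf with the neutrophil list. For the gland list the medians were 0.53 in GFP+ cells and 0.55 in GFP- cells (0.19 without octanol pool 1), and for the mucus list they were 0.51 and 0.54. Gland marker means per pool were 11.43, 10.82, 10.39 and 9.41 log2 after octanol and 9.72, 9.83, 10.04 and 9.28 after vehicle. Octanol pools 1 to 3 were above all vehicle pools and octanol pool 4 was below 3 of them, and without it the gland median was 0.62. The mucus list had a median of 0.31 without octanol pool 3 or without vehicle pool 2, and of 0.79 without vehicle pool 3.

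Bpifb9a, a secreted member of the bactericidal permeability-increasing fold family, showed the largest estimated difference of all genes, 2.19 log2. It measured 15.06, 14.31, 10.92 and 8.76 in octanol pools and 10.22, 10.95, 10.26 and 8.84 in vehicle pools. Octanol pools 1 and 2 were above every vehicle pool, octanol pool 3 lay among them and octanol pool 4 was below them all. With a standard error of 1.17 the interval ran from -0.38 to 4.77. The same pools were high in each fraction, at 14.51 and 13.96 in GFP+ cells and 15.62 and 14.67 in GFP- cells. Bpifb9b, its neighbouring paralogue, followed the same pools, with 17.02, 16.22, 13.30 and 11.05 after octanol and 12.82, 13.39, 12.75 and 11.19 after vehicle. Because of that likeness the separate signals of the pair are uncertain, since array probes could detect both transcripts.

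The promoters of the pair are printed to show how alike they are. They lie at chr2:154257629-154257878 and chr2:154306994-154307243 (GRCm38.p6, plus strand, RefSeq), 250 bases each before the start.
Bpifb9a promoter: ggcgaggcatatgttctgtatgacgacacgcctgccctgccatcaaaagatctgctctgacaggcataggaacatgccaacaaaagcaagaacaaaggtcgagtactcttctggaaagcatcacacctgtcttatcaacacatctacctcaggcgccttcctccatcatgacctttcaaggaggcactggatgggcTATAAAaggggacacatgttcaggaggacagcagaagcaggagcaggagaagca
Bpifb9b promoter: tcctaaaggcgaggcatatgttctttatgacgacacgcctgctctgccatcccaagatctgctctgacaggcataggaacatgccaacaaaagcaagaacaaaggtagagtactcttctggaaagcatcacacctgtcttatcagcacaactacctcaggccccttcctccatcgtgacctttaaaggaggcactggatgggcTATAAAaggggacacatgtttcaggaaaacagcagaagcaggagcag
Over 242 aligned bases 230 were identical. The capitals mark TATAAA, searched on both strands, found 54 and 47 bases before the start. It occurs in 12.4% of all windows. Of the 7 gland markers for which a promoter was given, 2 hold it in any of their windows, a share per gene and not per window.

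Aqp5, a water channel of the glands, had the lowest p of the gland list. It measured 7.87, 7.91, 7.94 and 7.65 log2 after octanol and 7.20, 7.56, 7.58 and 7.45 after vehicle, without overlap, a difference of 0.40 ± 0.11. Krt18, a keratin of gland and supporting cells, was higher by 0.30 ± 0.13 with octanol pool 3 highest at 10.51. Bpifb1, a secreted relative of the Bpifb9 pair, was below background in every pool (4.36 to 5.24).

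Other secreted products of the mucosa leaned the same way with wide errors. Gpx6, a glutathione peroxidase of the olfactory mucosa, was at 14.17, 12.82, 13.06 and 12.37 log2 after octanol and 12.57, 12.37, 13.00 and 12.08 after vehicle, a difference of 0.60 ± 0.33 in which octanol pool 1 was the high value. Scgb1c1, a secretoglobin made in the glands, was higher by 0.63 ± 0.27, and its octanol pool 4 (11.67) was no higher than the vehicle pools. The lipocalins Lcn11 and Lcn4, small carriers of hydrophobic molecules, differed by 0.79 ± 0.46 and 0.59 ± 0.67, and Bpifb4 by 0.78 ± 0.53. Muc2, a gel-forming mucin, differed by 0.34 ± 0.16. None of these genes was called, and all but Scgb1c1 had an unadjusted limma p above 0.05.

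**Figure D3:**
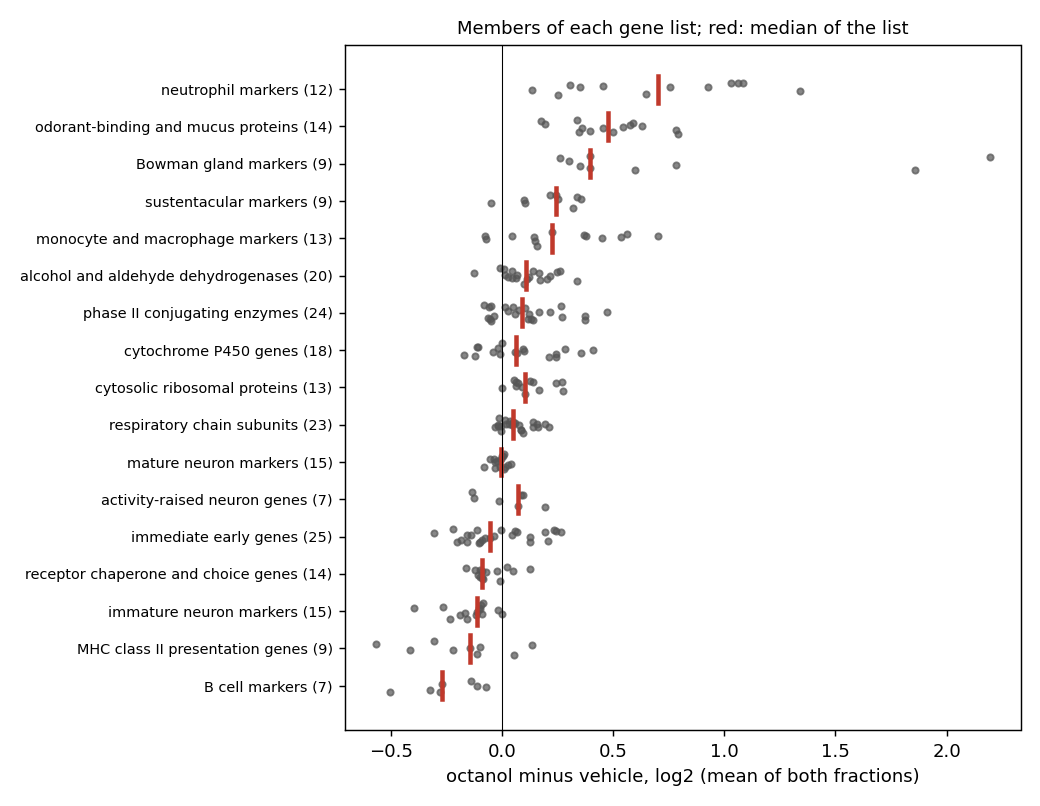
Difference between octanol and vehicle (x axis, log2, mean of both fractions) for each measured member of 17 gene lists (rows, number of members in brackets), with the median of the list in red. Neutrophil (0.70), mucus (0.48) and gland (0.40) lists lie highest and the B cell list (-0.27) lowest.

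Sustentacular cells and the enzymes that metabolise odorants differed little. Of 9 sustentacular markers 8 had a positive difference, with a median of 0.24 log2, 0 at an unadjusted p under 0.05, and a median of 0.08 without octanol pool 3. That pool was the high one for Cyp2a5, a cytochrome P450 of the olfactory mucosa (15.47 log2 beside 14.65 to 14.72 in the other octanol pools), and for Cbr2, a carbonyl reductase (14.65 beside 13.61 to 13.80). Alcohol and aldehyde dehydrogenases, the enzymes that oxidise alcohols such as octanol, had a positive difference in 18 of 20 with a median of 0.11 and 0 at an unadjusted p under 0.05. Aldh2, the mitochondrial aldehyde dehydrogenase, was 13.56, 13.16, 13.90 and 13.74 after octanol and 13.08, 13.05, 13.41 and 13.47 after vehicle, a difference of 0.34 ± 0.16 with overlap. Among 18 cytochrome P450 genes the median was 0.06, with 1 higher at an unadjusted p under 0.05, and among 24 conjugating enzymes it was 0.09, with 2. Sult1e1, a sulfotransferase, was higher by 0.47 ± 0.20 on average, by 1.08 in GFP+ cells and by -0.13 in GFP- cells.

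Odorant receptor genes had more members lower than higher after octanol. Of 1091 receptors, 724 (66.4%) had a negative difference and 367 a positive one, where 51.6% of all genes were negative. The median was -0.08 log2, and -0.06, -0.07 and -0.02 with quantile, array median and receptor median scaling. At an unadjusted p under 0.05, 65 receptors (5.96%, against 1.76% of all genes) were lower and 13 (1.19%, against 2.07%) were higher. Pools without overlap were seen for 28 lower and 4 higher receptors, where 229 (1.17%) and 227 (1.16%) of all genes had them. With receptor centring 35 receptors were lower and 17 higher at an unadjusted p under 0.05, where 85 and 485 of all 19505 genes were. With the pool as a random block 35 receptors were lower and 4 higher, where 360 and 354 of all genes were. The median log2 signal of all receptors was 9.68 ± 0.04 in octanol pools and 9.73 ± 0.14 in vehicle pools (SD, n = 4, exact permutation p = 0.514). Vehicle pool 2 was the high one at 9.91 and vehicle pool 3 the low one at 9.58. Without vehicle pool 2 the median difference was -0.02. At an unadjusted p under 0.05, 51 receptors were then lower and 28 higher, where 389 and 364 of all genes were. Without vehicle pool 3 the median difference was -0.13, with 85 receptors lower and 8 higher, where 308 and 367 of all genes were.

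In the separate fractions the receptor difference was seen in GFP- arrays. In GFP- cells 835 of 1091 receptors were lower after octanol, with a median of -0.16 log2, and 110 (10.1%) were lower at an unadjusted p under 0.05 where 2.56% of all genes were. In GFP+ cells 575 were higher and 516 lower, and the median was 0.01. At an unadjusted p under 0.05, 16 were lower (1.47%, against 1.47% of all genes) and 26 higher, where 2.26% of all genes were. That GFP+ median ran from -0.04 to 0.05 over the other settings, so it had no stable sign. The difference between fractions had a median of 0.17 over receptors. For a larger value in GFP+ cells 65 receptors (5.96%, against 2.59% of all genes) had an unadjusted p under 0.05. For a smaller one 9 did (0.825%, against 1.95%). In each single setting but one the GFP- median stayed between -0.20 and -0.11, leave-one-out fits included, and centring each array on the median of its receptors, which removes a family-wide shift by construction, gave -0.00 in GFP- cells and turned the median difference between fractions to -0.03. That centring moved the median of all genes in GFP- cells from -0.02 to 0.14. It subtracts a constant from each array, so it cannot change the gap between receptors and other genes and does not test it. Class I receptors (121) had a median of -0.07 and class II receptors (950) of -0.08 in the mean of both fractions. Trace amine receptors, a second family of olfactory receptors, were negative in 11 of 15 with a median of -0.11 in that mean. At an unadjusted p under 0.05, 3 class I (2.48%) and 60 class II receptors (6.32%) were lower in it, against 1.76% of all genes. In GFP- cells 10 (8.26%) and 96 (10.1%) were lower. A larger value in GFP+ cells had such a p for 0 class I and 64 class II receptors (6.74%).

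Single receptors stood out in either direction. Olfr720 had the lowest p of all 19505 genes (limma, adjusted p = 0.999). Its signal was 11.89, 11.75, 11.89 and 11.90 log2 in octanol pools and 11.10, 11.46, 11.27 and 11.18 in vehicle pools, without overlap. The difference was 0.60 ± 0.10, a fold of 1.52, and it was 0.54 in GFP+ and 0.67 in GFP- cells. Olfr769 was the receptor of lowest p in the other direction (limma, adjusted p = 0.999). It was at 8.58, 9.12, 8.90 and 8.91 after octanol and at 9.41, 9.58, 9.69 and 9.39 after vehicle, again without overlap, lower by 1.56-fold. For Olfr769 the difference between fractions was -0.71 log2, larger in size in GFP+ cells, and was not called (limma, adjusted p = 0.998).

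Further receptors had pools without overlap. Olfr298 measured 7.62, 7.22, 7.53 and 7.60 log2 after octanol and 8.36, 7.95, 8.76 and 7.75 after vehicle, a difference of -0.71 ± 0.20. Olfr1085, Olfr867 and Olfr765 differed by -0.38 ± 0.09, -0.36 ± 0.09 and -0.31 ± 0.08. Olfr1085 was at 9.75 after octanol and 9.80 after vehicle in GFP+ cells, and at 8.04 and 8.73 in GFP- cells. Olfr867 was at 11.39 and 11.60 in GFP+ cells, and at 10.08 and 10.58 in GFP- cells. Olfr1202 was higher by 0.45 ± 0.17, with vehicle pool 2 low at 9.66. Olfr655, a class I receptor, had the largest negative difference of all genes, -0.77 ± 0.21, with octanol pools at 9.77, 10.22, 9.85 and 10.61 and vehicle pools at 10.91, 11.33, 10.53 and 10.77 that overlapped. Receptor genes are close relatives of one another, so a probe set can also catch transcripts of a similar receptor, and single receptors are uncertain to that degree.

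**Figure D4:**
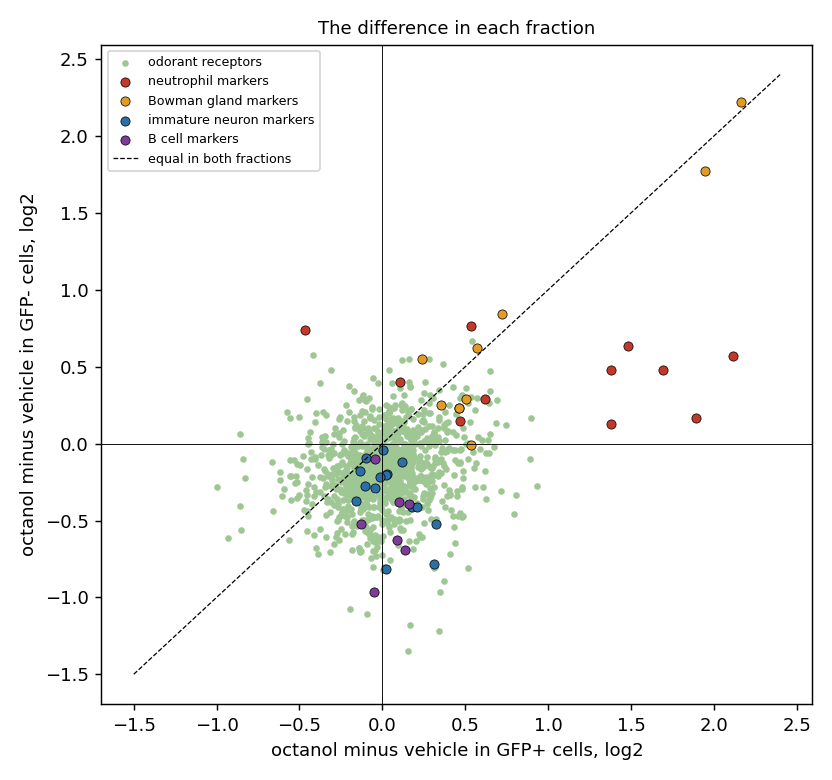
Difference between octanol and vehicle in GFP+ cells (x axis) and in GFP- cells (y axis), both log2, for odorant receptors and 4 marker lists; the dashed line marks equal differences. Receptors centre near 0 in GFP+ cells and at -0.16 in GFP- cells, immature neuron markers lie below 0 in GFP- cells (15 of 15), and the neutrophil medians are 1.00 and 0.44.

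The 15 mature neuron markers had a median difference of -0.00 log2 and ran from -0.08 to 0.04. The 10 genes of the odor signal cascade had a median of -0.02, the 8 measured genes of response termination 0.00 with a range of -0.14 to 0.45, and neither list nor the mature markers held a gene at an unadjusted p under 0.05. Gnal, the G protein of olfactory transduction, was at 17.74, 17.68, 17.76 and 17.71 after octanol and 17.88, 17.84, 17.77 and 17.72 after vehicle, a difference of -0.08 ± 0.08. Of 14 genes for receptor choice and transport 11 were lower, with a median of -0.09 and 0 at an unadjusted p under 0.05. Ebf3, a transcription factor of olfactory neurons, had pools without overlap at a difference of -0.12 ± 0.08.

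Activity-dependent genes did not move together. S100a5 itself was at 16.43, 16.33, 16.42 and 16.28 log2 after octanol and 16.52, 16.56, 16.53 and 16.35 after vehicle, a difference of -0.12 ± 0.09 with overlapping pools. Its sorting role makes its level within a fraction depend on the gate. Pcp4l1, which encodes a calmodulin-binding peptide, differed by -0.13 ± 0.13, and Kirrel2, an adhesion molecule raised by activity, by 0.19 ± 0.30. Of 7 activity-raised genes 4 were higher (median 0.07), and of 3 activity-lowered genes 0 were (median -0.13), none at an unadjusted p under 0.05. Of 25 immediate early genes, the first to respond to stimulation, 10 were higher and 15 lower, with a median of -0.05. Egr1 differed by -0.30 ± 0.14, by -0.50 in GFP+ and -0.11 in GFP- cells, while Egr3 and Atf3 differed by 0.23 ± 0.11 and 0.24 ± 0.11, by 0.37 and 0.46 in GFP- and by 0.09 and 0.02 in GFP+ cells.

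Immature neuron markers were slightly lower on average. Of 15, 14 had a negative difference, with a median of -0.11 log2 and 1 at an unadjusted p under 0.05. In GFP- cells, where immature neurons are collected, all 15 were negative with a median of -0.27. Of these, 4 (26.7%) were lower at an unadjusted p under 0.05, where 2.56% of all genes were. That count depended on the setting. It was 1 with quantile, array median or receptor median scaling, 1 without octanol pool 1 or without vehicle pool 2, and 7 with the replicate number as a block. In GFP+ cells 6 were negative with a median of 0.02, which was -0.02 with receptor centring and -0.04 without vehicle pool 4. Under the other settings the GFP- median ran from -0.30 to -0.12, and 12 of 15 were negative with receptor centring. Nhlh1, a transcription factor of newly formed neurons, was at 8.38, 8.29, 8.48 and 8.56 after octanol and 8.86, 9.04, 8.83 and 8.57 after vehicle, without overlap, a difference of -0.40 ± 0.11. In GFP- cells it was at 10.20, 10.39, 10.64 and 10.84 beside 11.41, 11.31, 11.36 and 11.25, and in GFP+ cells it was between 5.89 and 6.77, around background. Dpysl5 and Marcksl1, genes of growing neurites, differed by -0.19 ± 0.10 and -0.26 ± 0.14. The neutrophil markers were higher in the same GFP- arrays (median 0.44), and their part in the receptor and immature neuron differences was not tested.

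**Figure D5:**
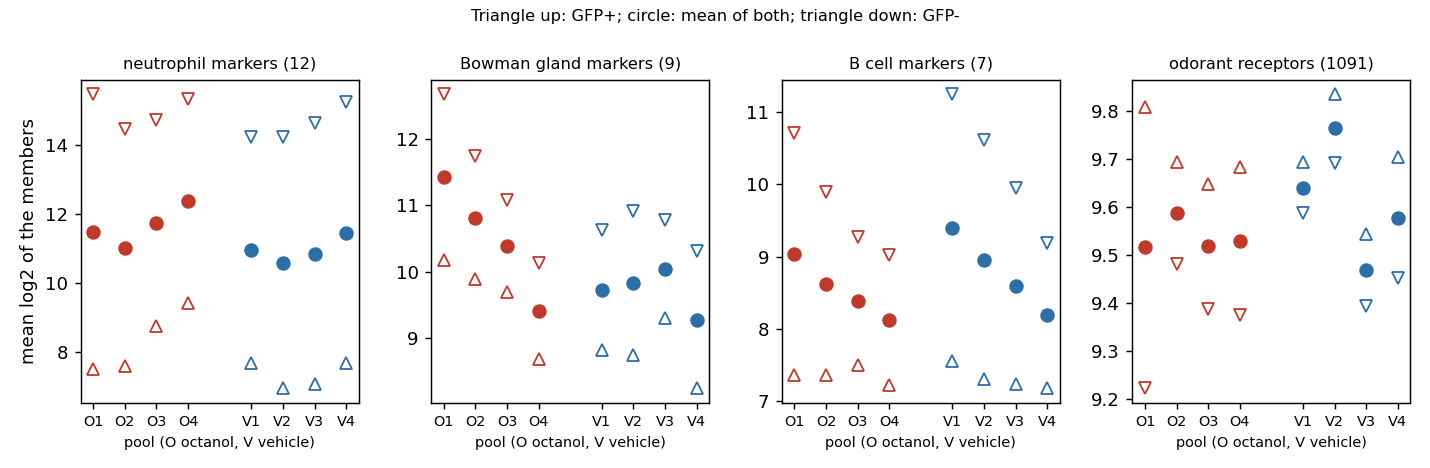
Mean log2 signal of the members of 4 lists (y axis) in each pool (x axis; octanol red, vehicle blue), for GFP+ arrays (triangles up), the mean of both fractions (circles) and GFP- arrays (triangles down). The scale differs between panels: neutrophil means span 10.59 to 12.38 and receptor means 9.47 to 9.76 log2 over pools.

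Genes of B cells and of antigen presentation were lower in value, with pools that spread far within each exposure. All 7 measured B cell markers had a negative difference, with a median of -0.27 log2, 0 at an unadjusted p under 0.05, and medians of 0.09 in GFP+ and -0.52 in GFP- cells. With 1 pool left out the GFP- median ran from -0.11 (without vehicle pool 1) to -0.98 (without vehicle pool 4), and was -0.85 without octanol pool 1 and -0.28 without octanol pool 4. The GFP+ median was -0.02 without vehicle pool 2, 3 or 4. Their mean per pool was 9.03, 8.63, 8.38 and 8.12 after octanol and 9.40, 8.96, 8.59 and 8.19 after vehicle, so the spread within an exposure was wider than the difference between exposures. The median was -0.05 without octanol pool 4, -0.06 without vehicle pool 1 and -0.42 without vehicle pool 4. Cd79a, a subunit of the B cell receptor complex, was at 9.03, 8.38, 8.22 and 8.10 beside 9.74, 9.17, 8.78 and 8.05, a difference of -0.51 ± 0.32. Its means in GFP+ cells were 6.56 after octanol and 6.61 after vehicle, and in GFP- cells 10.30 and 11.26. Of 9 genes of MHC class II presentation 7 were negative with a median of -0.14 and 1, H2-DMa, at an unadjusted p under 0.05 (-0.41 ± 0.18). The class II median was -0.05 without vehicle pool 1 and -0.22 or -0.23 without octanol pool 1, vehicle pool 2 or vehicle pool 4. In GFP- cells all 9 class II genes were negative (median -0.30), 1 of them at an unadjusted p under 0.05 (2.56% of all genes). In GFP+ cells 5 were negative and 4 positive (median -0.09). There 2 were higher at an unadjusted p under 0.05, where 2.26% of all genes were, and 0 were lower. H2-Ob differed by -0.57 ± 0.31 and Ciita, the master regulator of class II genes, by -0.31 ± 0.15, both with vehicle pool 1 highest (8.95 and 7.38). For H2-Ob the difference was -0.12 in GFP+ and -1.01 in GFP- cells.

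Few genes separated the exposures in both fractions at once. In each fraction the 4 octanol arrays lay above the 4 vehicle arrays for 3 genes (0.0154%) and below them for 5 (0.0256%), and 3 genes (0.0154%) did so in opposite directions. Above background the higher ones were Hdc and Mrpl20, a protein of the mitochondrial ribosome. Mrpl20 was at 11.07 to 11.21 log2 in octanol pools and had its lowest vehicle value at 10.75 in pool 3, a difference of 0.26 ± 0.09. The lower ones were Macroh2a3, Rbms2, Fbrs, Sec24b and Shmt2. Rbms2, an RNA-binding protein, was at 10.27, 10.22, 10.24 and 10.15 beside 10.69, 10.51, 10.57 and 10.54, a difference of -0.36 ± 0.08 that was -0.31 in GFP+ and -0.40 in GFP- cells. Macroh2a3 differed by -0.37 ± 0.09, Sec24b, a coat protein of transport vesicles, by -0.34 ± 0.10, Fbrs by -0.29 ± 0.10, and Shmt2, an enzyme of serine and glycine metabolism, by -0.18 ± 0.08.

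Within the fractions the separate fits called 0 genes as well. In GFP+ cells limma gave a smallest adjusted p of 1.00, with 440 genes (2.26%) higher and 287 (1.47%) lower at an unadjusted p under 0.05, and 1.25% and 0.964% of genes without overlap above and below. In GFP- cells the smallest adjusted p was 0.982, with 394 (2.02%) higher and 500 (2.56%) lower, and 1.06% and 1.51% without overlap. Both fractions listed 15 genes as higher, which are 3.41% of the GFP+ and 3.81% of the GFP- genes, and 10 as lower, which are 3.48% and 2% of them, while 10 pointed in opposite directions. The difference of the octanol effect between fractions was called for 0 genes (limma, smallest adjusted p = 0.863), with 505 (2.59%) and 381 (1.95%) at an unadjusted p under 0.05 and 1.55% and 1.04% without overlap. The lowest p belonged to the receptor Olfr95, which was higher by 0.34 log2 in GFP+ cells and differed by -1.22 in GFP- cells. Its GFP- signal was 10.04, 10.39, 9.95 and 10.89 after octanol and 10.98, 12.04, 11.74 and 11.38 after vehicle, so those pools did not overlap.

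The other gene lists stayed close to the median of all genes or rested on few members. Of 13 measured cytosolic ribosomal proteins 12 were higher, with a median of 0.11 log2 and 2 at an unadjusted p under 0.05. Rps24, a protein of the small subunit, was at 15.22, 14.84, 14.87 and 14.93 beside 14.78, 14.72, 14.56 and 14.70, a difference of 0.28 ± 0.11. Of 23 respiratory chain subunits 17 were higher with a median of 0.05. Of 7 fibroblast and pericyte markers 6 were higher with a median of 0.23, and Dcn, a matrix proteoglycan, differed by 0.45 ± 0.18. The 7 horizontal basal cell markers were all positive (median 0.16) but none lay above background. Heat shock genes had a median of 0.11 over 10 genes, and Hspa1a, an inducible chaperone, ranged from 9.28 to 11.96 over octanol pools and from 9.52 to 11.98 over vehicle pools.

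Medians between -0.10 and 0.09 log2 were found for the remaining lists. They were -0.07 for 11 progenitor and cell cycle genes, of which Aurkb, a mitotic kinase, differed by -0.28 ± 0.11, -0.10 for 9 tuft-like and -0.04 for 7 ionocyte-like microvillar markers, and -0.07 for 8 markers of ciliated cells. Markers of ensheathing glia (5), endothelium (7), T and NK cells (9), erythroid cells (3) and necklace neurons (8) had medians of 0.08, -0.05, -0.03, 0.06 and 0.09. The unfolded protein response (17 genes) had a median of 0.00, interferon-stimulated genes (22) -0.01 and circadian clock genes (17) -0.02. Oxidative stress (10), glucocorticoid-responsive (11) and cholesterol synthesis genes (14) had medians of -0.02, -0.01 and -0.01, each with 1 gene lower at an unadjusted p under 0.05. These were Srxn1, a peroxiredoxin reductase (-0.32 ± 0.12), Cdkn1a, a cell cycle inhibitor (-0.29 ± 0.10), and Mvk, mevalonate kinase (-0.28 ± 0.12).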

How the data were processed

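Biotinylated cRNA was made from 50 to 100 ng of total RNA per array, per the labels' protocols. Signals on a log2 scale were deposited, and Affymetrix Expression Console made them, per the submitters' processing notes. No source used here states its version or settings. The values, from 2.22 to 18.70, were not scaled again. An array has no read depth, so the number of arrays limits the precision.

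Of 28846 probe sets 6640 are controls by name, and 19572 carry exactly 1 gene symbol. The probe set with the highest mean represented a gene, which left out 67, and the 19505 genes were all named through the RefSeq gene table of GRCm38.p6 by Entrez number. The other 2701 probe sets that are not controls, tested alone, gave 0 calls in limma (smallest adjusted p = 0.959). Genes with an Olfr symbol count as odorant receptors, and class I and II were told by the MOR number among their synonyms (20 had none). The GFP+ and GFP- arrays with 1 exposure and number were taken as the same 3 mice, which is inferred from 24 mice and 8 pools.

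Pool means were compared with limma 3.58.1 (lmFit, eBayes, 2-sided) in R 4.3.3, with exposure as the only term, 6 residual and 10.5 total degrees of freedom. The GFP+ minus GFP- value of each pool gave the test of the difference between fractions. The fit was tested on simulated data. A p for a single gene is from limma and SE is its moderated standard error. The 39 gene lists were written from background knowledge, with 426 of 487 genes measured. The members and lists were chosen with earlier results of these data known. A test of list means over pools that had been planned was not run, and lists are described by counts and medians.

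Named genes follow a rule. In each direction it takes up to 12 genes past adjusted p = 0.05, filled with genes of lowest unadjusted p whose pools do not overlap, whose fractions have the same sign and whose higher group lies above background. It adds up to 6 genes per direction without overlap in either fraction, 4 receptors, up to 4 members of largest difference per list, and 4 genes of lowest p for the difference between fractions. Alternatives were quantile, array median and receptor median scaling, a filter on background, eBayes with trend or robust, array weights, the mean of probe sets, the replicate number as a block, the pool as a random block, and each pool left out. The Y-linked level of a pool as a covariate and the separate test of unused probe sets were added after seeing the data.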

Additional observations from a re-analysis of the deposited data

Results flagged for a closer look

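In 18 of 198 groups of 4 pools tested among the followed genes, 1 pool lay apart from the other 3 by more of the group's range than Dixon's 95% critical value for 4 samples. Chance alone passes about 1 in 20 such groups, and genes of a list are not independent, so the number is given without further reading. Values are log2 means of both fractions.

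Octanol pool 3 was the high value for Cyp2a5 (15.47) and for Rgs5, a pericyte marker (12.60). It was the low value for Aldh1b1 (6.23), Dpysl5 (12.36), Fam187b (10.48) and the trace amine receptor Taar7a (8.42). Octanol pool 1 was the low value for Shmt2 (9.73) and Srxn1 (9.62), and octanol pool 2 for Olfr720 (11.75), where the 3 others lay between 11.89 and 11.90.

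Vehicle pool 2 was the low value for AI504432 (7.22), Egr1 (10.00) and Jaml (6.85) and the high value for Ccl6 (9.07). Vehicle pool 4 was the high value for Ly6c2 (11.27) and Tyrobp (9.33) and the low value for Ebf3 (16.11). Vehicle pool 1 was high for Polrmt, the mitochondrial RNA polymerase (7.95), and vehicle pool 3 for Scgb1c1 (12.31).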

How the results depend on the processing

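The count of genes past an adjusted p of 0.05 was 0 in all 4 comparisons under every alternative run (19 for the mean of both fractions, 8 of them leaving out 1 pool). The smallest adjusted p was 0.630 for the mean of both fractions, with a trend in the variance prior, 0.498 for the difference between fractions, 0.530 in GFP+ and 0.639 in GFP- cells. Of 99 genes followed, 98 kept their sign in every setting, and Kirrel2 (0.19) was -0.000690 without octanol pool 3 and -0.0199 without vehicle pool 1, and reached 0.40 with another pool left out.

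Counts at an unadjusted p under 0.05 depended more on the setting. For the mean of both fractions, genes higher after octanol numbered 184 with the background filter, which tests fewer genes, 677 without octanol pool 2 and 613 without vehicle pool 4, against 403, and the cause of the last 2 was not tested. Centring on receptors gave 485 higher and 85 lower against 403 and 343, and centring on the array median 477 and 288. In GFP- cells the same centrings gave 1201 and 70, and 636 and 296, against 394 and 500. In GFP+ cells they gave 164 and 275, and 351 and 359, against 440 and 287, and without octanol pool 2 there were 673 higher. For the difference between fractions they gave 80 and 1331, and 295 and 653, against 505 and 381, with the median of all genes moved from 0.03 to -0.17 by receptor centring. The background filter left 319 and 177 genes for the difference between fractions, 220 and 182 in GFP+ and 192 higher in GFP- cells. The median of all genes in the mean of both fractions was 0.05 with receptor centring.

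Octanol and vehicle pools share the numbers 1 to 4, which the labels do not explain. Deviations from group means correlated over genes at 0.0990, 0.294, 0.195 and 0.286 for pools of the same number. The mean for pools of different numbers was -0.0726, and not every pool correlated best with its own number. Because deviations within a group cancel, such a mean is nearly fixed by the same-number values and is not separate information. Over genes above background the same correlations were 0.144, 0.394, 0.263 and 0.409, beside a mean of -0.101 for different numbers. A cutoff of 0.1 was passed at every number over genes above background, and was missed at number 1 over all genes. With either set of genes, pools of the same number were on average more alike than pools of different numbers. The Y-linked means of same-numbered pools were also close (10.18 and 10.26, 9.12 and 9.33, 9.15 and 9.15, 10.90 and 10.90), and the B cell mean was lower after octanol at each of the 4 numbers. The neutrophil, gland and mucus means were higher after octanol at each of the 4 numbers, and the sustentacular mean at numbers 1 to 3 only. The values without the block are the ones reported, and the block is given here beside them. With the replicate number as a block 0 genes were called (limma, smallest adjusted p = 0.741), and 615 genes were higher and 462 lower at an unadjusted p under 0.05. In the block fit 8 of 12 neutrophil, 7 of 9 gland and 9 of 14 mucus genes were higher at an unadjusted p under 0.05, against 6, 2 and 2 without it, and 31 receptors were higher and 126 lower. In GFP- cells the block gave 593 higher.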

Other observations

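Genes outside the lists also had pools without overlap in the mean of both fractions, and none was called. Trim30b, a member of the TRIM family, was at 7.24, 6.83, 6.73 and 7.03 log2 after octanol and 6.60, 6.21, 6.41 and 6.33 after vehicle, a difference of 0.57 ± 0.13. Its GFP+ means, 5.93 after octanol and 5.65 after vehicle, were below background, and its GFP- means were 7.98 and 7.12. Ces1e, a carboxylesterase, differed by 0.43 ± 0.12, Reep5, which shapes the endoplasmic reticulum, by 0.43 ± 0.12, and Tnfsf15, a cytokine of the tumor necrosis factor family, by 0.34 ± 0.10. In the other direction AI504432, a transcript of unnamed function, was at 6.85, 7.03, 6.89 and 6.82 beside 7.36, 7.22, 7.38 and 7.38, a difference of -0.44 ± 0.09. Polrmt differed by -0.48 ± 0.12, of which -0.77 was seen in GFP- and -0.18 in GFP+ cells. Hirip3, a histone chaperone partner, differed by -0.39 ± 0.09, Fam187b by -0.32 ± 0.08 and Rusc2 by -0.37 ± 0.10.

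Vomeronasal receptor genes, most of them used in another organ and below the background level set from them, had a median difference of 0.04 log2 over 321 genes. Vmn2r29 was far above background at 11.79, 12.14, 11.78 and 11.68 after octanol and 11.58, 10.83, 12.14 and 11.01 after vehicle, and its pools overlapped.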
